A study of Mus musculus with 10 samples.

Results

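Suz12 binding sites outside chromosome 11 that lost H3K27me3 on Pcl3 knockdown were examined in mouse embryonic stem cells (ESCs). Members were chosen by the deposited site lists: a Suz12 site qualified when the center of a site with decreased H3K27me3 lay within 2000 bp of its own center. Of 8876 Suz12 sites, 7955 were not on chromosome 11, and 474 of these were members. This is 5.96% of the Suz12 sites off chromosome 11 (95% Wilson interval 5.46% to 6.50%), and 7481 sites had no such neighbor. Membership rests on a measured loss, so the p-values of Suz12 binding and of H3K27me3 depletion are given below as descriptions.

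ChIP-seq, which sequences the DNA pulled down by an antibody, was performed for H3K27me3 and for Suz12-TAP in Suz12 Suz12TAP/+ ESCs derived from XG122, a gene trap line of BayGenomics. These cells carry 1 tagged and 1 untagged Suz12 allele and expressed Pcl3 shRNA or scramble shRNA. Pcl3-TAP was mapped in E14 ESCs that expressed the tagged protein together with Pcl3-shRNA6 or Pcl3-shRNA7 against wild-type Pcl3, so Pcl3 positions come from another ESC line than the Suz12 and H3K27me3 positions. Of the 10 libraries, 6 are ChIP libraries and 4 are input DNA, with 1 library for each H3K27me3 and Suz12 condition. No test of a difference between conditions or groups of sites was therefore made, and intervals cover counting error over sites of the same libraries. The number of clones behind each library is not given in the sources used here. The lists hold no read counts, so fold changes and depth per library are unknown.

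Polycomb repressive complex 2 (PRC2) places 3 methyl groups on lysine 27 of histone H3, a mark of silenced genes. Suz12 is a core subunit that the complex needs for its activity, and Pcl3 is one of the Polycomb-like proteins that associate with it. In ESCs the mark covers the CpG-rich starts of many genes for development that are held silent until differentiation.

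The DNA under the members is shown first, since it differs in kind among those with the smallest H3K27me3 p-values. The sequences below are the 200 bp around the Suz12 center in mm9, read 5′ to 3′ on the plus strand, and capitals mark each CpG. The first 3 come from genes: Chadl, Mmp9 and Cilp2 (the weaker of its Suz12 sites) hold 23, 11 and 10 CpG in this window, with a GC content of 74.0%, 57.0% and 63.0%. The other 3 are AT-rich, with a GC content of 34.5% at an intergenic site whose nearest coding start is that of Gm5614, 36.0% at Gm10800 and 34.0% at Gm10801, and hold 6, 5 and 7 CpG.
Chadl (chr15:81524426-81524625): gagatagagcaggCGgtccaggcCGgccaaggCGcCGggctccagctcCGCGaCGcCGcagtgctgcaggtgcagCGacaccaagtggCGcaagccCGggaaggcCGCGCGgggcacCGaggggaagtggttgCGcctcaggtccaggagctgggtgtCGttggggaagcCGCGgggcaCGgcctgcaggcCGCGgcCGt
Mmp9 (chr2:164775276-164775475): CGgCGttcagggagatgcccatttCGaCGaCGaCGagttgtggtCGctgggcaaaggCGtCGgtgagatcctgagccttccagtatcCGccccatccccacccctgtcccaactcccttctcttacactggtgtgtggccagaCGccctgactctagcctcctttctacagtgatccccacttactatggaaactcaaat
Cilp2 (chr8:72408201-72408400): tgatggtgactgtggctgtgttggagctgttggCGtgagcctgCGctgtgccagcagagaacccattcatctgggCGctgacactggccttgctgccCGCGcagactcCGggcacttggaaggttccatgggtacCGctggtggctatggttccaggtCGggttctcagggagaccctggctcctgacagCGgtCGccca
Gm5614 (chr9:35112826-35113025): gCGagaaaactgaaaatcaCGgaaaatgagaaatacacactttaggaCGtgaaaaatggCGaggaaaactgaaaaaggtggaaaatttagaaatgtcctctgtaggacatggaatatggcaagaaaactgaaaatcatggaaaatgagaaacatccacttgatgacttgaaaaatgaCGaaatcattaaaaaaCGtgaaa
Gm10800 (chr2:98507101-98507300): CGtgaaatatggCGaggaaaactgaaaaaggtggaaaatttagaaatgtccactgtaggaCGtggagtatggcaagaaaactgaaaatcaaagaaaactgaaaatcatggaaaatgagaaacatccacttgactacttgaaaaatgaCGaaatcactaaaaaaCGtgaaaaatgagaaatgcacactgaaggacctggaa
Gm10801 (chr2:98502651-98502850): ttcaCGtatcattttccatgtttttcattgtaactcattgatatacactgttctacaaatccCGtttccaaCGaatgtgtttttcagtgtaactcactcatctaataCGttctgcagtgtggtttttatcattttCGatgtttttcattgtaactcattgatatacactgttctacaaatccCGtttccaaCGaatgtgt

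The longest run of bases that the Gm5614 and Gm10800 windows share is 43 bp, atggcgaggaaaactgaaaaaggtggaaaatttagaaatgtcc. Some members consist in part of locally repeated DNA. Of the 474 members, 10 had more than 10% of their 30-mers repeated within 50 kb and 6 had more than 50%, against 63 and 7 of the 7481 other sites. On chromosome 2 they lie at Gm10800 and Gm10801, on chromosome 9 at Gm10715, Gm10717 and Gm11168, and the others are at Pcdha11 and Gm1979. A member at Gm11168 on chromosome 9 (3004651 to 3005100) matched itself at 91.2% of bases when shifted by 234 bp. A pair of members at Gm10717 matched at 90.4% and 84.9% at the same shift. The match was poorer at the larger sites: 51.5% at 234 bp for Gm10800 and 60.1% at 233 bp for Gm10715, while for Gm10801 the best shift was 120 bp, at 38.1%. The mouse major satellite, the tandem repeat of DNA next to centromeres, has a unit of 234 bp.

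These repeats held the smallest H3K27me3 p-values of all members. The site at Gm10800 (chromosome 2, 98506651 to 98507750) had an H3K27me3 p-value of 2.54e-75 and a Suz12 p-value of 1.4e-92. Gm10801 had 7.11e-46 and 1.99e-113, and Gm10715 had 1.58e-41 and 3.69e-50. All 3 were in the Suz12-depleted list and had a Pcl3 center within 2 kb. In their deciles of Suz12 p-value, 97.2% to 99.9% of other sites were in that list and 57.6% to 93.7% had Pcl3. Of the other repeated members, Gm1979 had both features, and Gm11168, Pcdha11 and the Gm10717 pair had neither. The weaker Gm10800 site had only Pcl3, and the strongest Gm10717 site only Suz12 depletion. After Gm10715, the intergenic site on chromosome 9 (35112501 to 35113350) was next, with an H3K27me3 p-value of 1.78e-36. Only 7.06% of its 30-mers recurred within 50 kb, but 17.4% of them occurred in the repeated members. Only uniquely aligned reads were kept upstream, which removes reads that match several places in the reference genome. The lists do not show whether reads from copies missing from the reference entered these values. The part of read placement in these values was not tested.

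Outside the repeats, Chadl and Mmp9 had the smallest H3K27me3 p-values among members assigned to a gene. Chadl, a leucine-rich repeat protein of cartilage, had an H3K27me3 p-value of 4.67e-31 and a Suz12 p-value of 1.75e-125. Its site (chromosome 15, 81523151 to 81525900) has its center in a coding exon, 3191 bp past the start. The nearest Pcl3 center was 375900 bp away, although the site was in the Suz12-depleted list. Mmp9, a secreted protease that degrades matrix, had an H3K27me3 p-value of 2.38e-20 with its center in an intron, 1657 bp past the start. Pcl3 was again absent within 2 kb, at a distance of 18175 bp. Cilp2 and Comp, both genes of cartilage matrix on chromosome 8, were also members. At Cilp2 a depleted site with an H3K27me3 p-value of 2.11e-19 linked 2 members, a weaker one in a coding exon with a Suz12 p-value of 2.77e-15 and a stronger one, 60 bp past the start, with 1.82e-158. The stronger one had a Pcl3 center within 2 kb and was in the Suz12-depleted list, and the weaker one had neither. Comp had an H3K27me3 p-value of 2.46e-16 and a Suz12 p-value of 1.84e-301.

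Next in this order were Apc2, Fzd10 and Kremen2, which encode proteins of the Wnt pathway. Fzd10, a Frizzled receptor for Wnt ligands, had an H3K27me3 p-value of 1.92e-18, with its center in the coding exon 782 bp past the start. Kremen2, a receptor for Dickkopf inhibitors, had 2.28e-18, and Apc2, a relative of the Wnt regulator Apc, had 6.35e-19. Of the 3, Fzd10 had a Pcl3 center within 2 kb. The Apc2 site had a Suz12 p-value of 1.62e-11 and was not in the Suz12-depleted list, whereas Fzd10 and Kremen2 were.

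At the transcription factor genes Sim2 and Tbx5 the members lay away from the starts. Sim2, a bHLH-PAS factor, had an H3K27me3 p-value of 3.86e-18 in an intron 8265 bp past its start, and Tbx5, a T-box factor of heart and forelimb, had 7.22e-17 in an intron 4979 bp past its start. Both had Suz12 p-values below those of most members, at 1.43e-292 and 2.24e-105. At Tbx5 the nearest Pcl3 center was 25 bp away, while at Sim2 it was 2725 bp away and beyond the limit of 2 kb.

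Kcnj3, Lphn2, Bsn, Dusp4, Pwwp2b and 2210011C24Rik complete the genes with the smallest H3K27me3 p-values. Kcnj3, a G-protein-gated potassium channel, had an H3K27me3 p-value of 1.59e-17 with its center 316 bp before the start. Lphn2, an adhesion receptor, had 3.94e-17, and Bsn, a scaffold of the presynaptic active zone, had 1.16e-16 in a coding exon. Dusp4, a phosphatase of MAP kinases, had 3.86e-16 in an intron 1250 bp past its start. Pwwp2b and 2210011C24Rik had 1.53e-17 and 2.73e-16 with centers before their starts. Pcl3 lay within 2 kb at Kcnj3, Lphn2 and 2210011C24Rik but not at Bsn, Dusp4 or Pwwp2b.

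**Figure D1:**
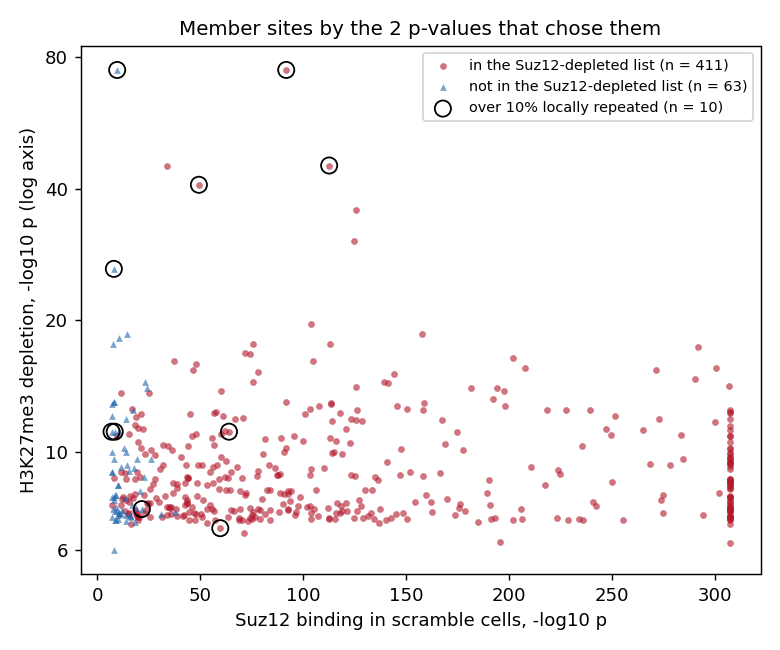
Each point is 1 of the 474 members, by the −log10 p-value of Suz12 binding in scramble cells (x axis) and of H3K27me3 depletion on Pcl3 knockdown (y axis, log scale). Red circles are the 411 members in the Suz12-depleted list, blue triangles the 63 that are not, and black rings the 10 members with over 10% locally repeated sequence. Suz12 p-values written as 0 stand at 307.2.

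Across the members, the H3K27me3 p-values ranged from 1.04e-06 to 2.54e-75. The median −log10 p was 8.40, with quartiles of 7.38 and 10.5, and 14 members had a p-value above 1e-07, the cutoff stated for single windows.  When the members were divided into 3 equal groups of 158 by H3K27me3 p-value, the group with the smallest p-values had a median Suz12 −log10 p of 103.7, against 70.0 and 78.4 in the others. Pcl3 was near 65.2%, 61.4% and 68.4% of these groups, from smallest to largest p-value, and a coding start near 54.4%, 57.0% and 55.1%. For neither feature did the share rise or fall across all 3 groups.

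The 474 members were linked to 426 of the 480 H3K27me3-depleted sites off chromosome 11. A single depleted site was the nearest one for 2 or more members in 42 cases, which involved 90 members, and up to 4 members shared 1 site. The linked sites were 1000 to 4450 bp wide with a median of 1350 bp. The centers of a member and its depleted site were a median of 425 bp apart, with quartiles of 200 and 825 bp. At 269 members, 56.8%, the distance was at most 500 bp. A shared base was found at 436 members, 92.0%.

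The members nearest to the limit of 2000 bp were sites at Hoxd3 and Sox8 at 2000 bp, followed by 6 sites at 1900 bp, among them Sgms1. Just outside were sites near Gm10715 and Zfp516 at 2025 bp and near Zfp651 at 2050 bp. Sites absent from the Suz12-depleted list stood on both sides of the limit, at Sox8 and at 4 of the 6 sites at 1900 bp on the inside and near Gm10715 and Zfp651 on the outside.

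Members were found among Suz12 sites of every strength and were more frequent among sites with small p-values. In the decile of Suz12 sites with the largest p-values, 21 of 796 were members, or 2.64% (1.73% to 4.00%). In the sixth decile 27 of 795 were members, or 3.40%. In the decile with the smallest p-values the count was 113 of 796, or 14.2% (11.9% to 16.8%). The median Suz12 −log10 p was 82.1 at members and 25.4 at the other sites. Weighted values of other sites, below, let each decile count as it does among the members.

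**Figure D2:**
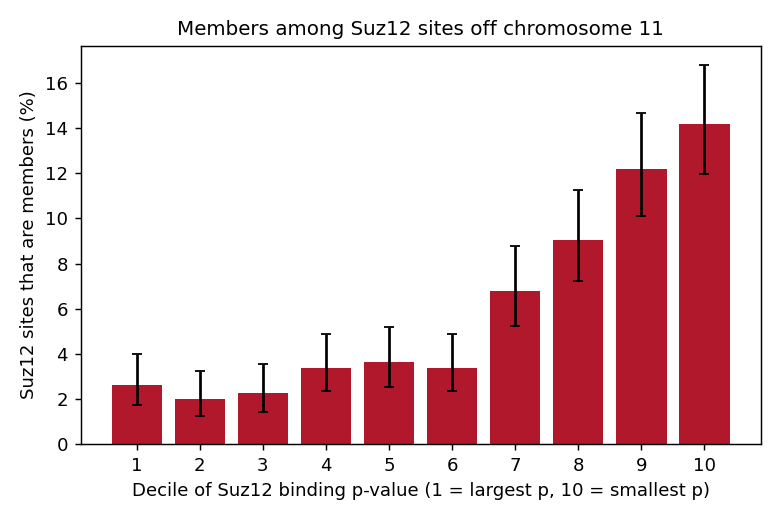
Percent of Suz12 sites off chromosome 11 that are members (y axis), by decile of the Suz12 binding p-value (x axis, 1 = largest p-values). Error bars are 95% Wilson intervals over sites. The percentage is between 2.01% and 3.64% in deciles 1 to 6 and reaches 14.2% in decile 10.

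The share of members varied between chromosomes. Chromosomes 8 and 15 had the highest shares, with 42 of 457 sites (9.19%, 6.87% to 12.2%) and 36 of 392 sites (9.18%, 6.71% to 12.5%). Chromosomes 3 and 1 had the lowest shares among the autosomes analysed, with 11 of 388 (2.84%, 1.59% to 5.00%) and 16 of 520 (3.08%, 1.90% to 4.94%). The share over all Suz12 sites off chromosome 11 was 5.96%. These chromosomes were picked as the extremes, and the shares were not weighted for Suz12 p-value, so their intervals are not compared. None of the 167 Suz12 sites on X or the 2 on Y was a member, and X held 1 H3K27me3-depleted site. Chromosome copy number in these cells was not measured in the lists, and its part in these shares was not tested.

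The share of sites at starts of protein-coding genes was lower for members than for other Suz12 sites of similar p-value. A coding start inside the site or within 2000 bp of its center was found at 263 of 474 members, or 55.5% (51.0% to 59.9%). The value was 65.4% at the other sites and 70.8% after weighting, a difference of −15.3 percentage points. The share was lower at members in 10 of 10 deciles. In the 5 deciles with the largest p-values, 36 of 111 members had a coding start, or 32.4% (24.4% to 41.6%), against a weighted 60.3%. In the 5 with the smallest, 227 of 363 had one, or 62.5% (57.4% to 67.4%), against 73.9%. The gap thus had the same direction at weak and strong Suz12 sites.

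Members had fewer centers close to a start, and more at 500 bp to 10 kb downstream and at 2 to 10 kb upstream of one. A center within 500 bp of the nearest coding start was found at 27.8% of members (24.0% to 32.0%) and at a weighted 48.8% of other sites. Centers 500 to 2000 bp downstream of a start made up 22.4% of members (18.8% to 26.3%) against 16.8%, and centers 2 to 10 kb downstream 15.8% (12.8% to 19.4%) against 9.05%. Centers 500 to 2000 bp upstream made up 5.27% (3.60% to 7.67%) against 4.48%, inside the interval, and centers 2 to 10 kb upstream 9.70% (7.35% to 12.7%) against 5.63%. Beyond 10 kb the shares were closer, at 10.5% against 8.33% downstream and 8.44% against 6.90% upstream. The weighted values for these distant classes lie inside the members' intervals.

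Member centers were in coding exons more than those of other sites, and in UTRs less. The center lay in a coding exon at 177 members, or 37.3% (33.1% to 41.8%), and at a weighted 22.9% of other sites. UTRs held 10.8% of member centers (8.28% to 13.9%) against 19.9%. Introns held 29.1% against 32.1%, and intergenic DNA 19.2% against 21.9%, both within the members' intervals. Of the 211 members without a coding start nearby, 136 had their center inside a protein-coding gene, 80 of them in a coding exon, and 75 lay in no coding gene. The sites in Chadl, Apc2 and Bsn are members of this kind.

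The H3K27me3-depleted center tended to lie further into the gene than the Suz12 center. At the 263 members with a coding start, the Suz12 center was a median of 362 bp past the start, compared with a weighted 224 bp at other sites. The H3K27me3-depleted center was a median of 715 bp past the start. It lay on the gene-body side of the Suz12 center at 171 members and on the upstream side at 87, with 5 ties. This is 66.3% of the 258 without a tie (60.3% to 71.8%).

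**Figure D3:**
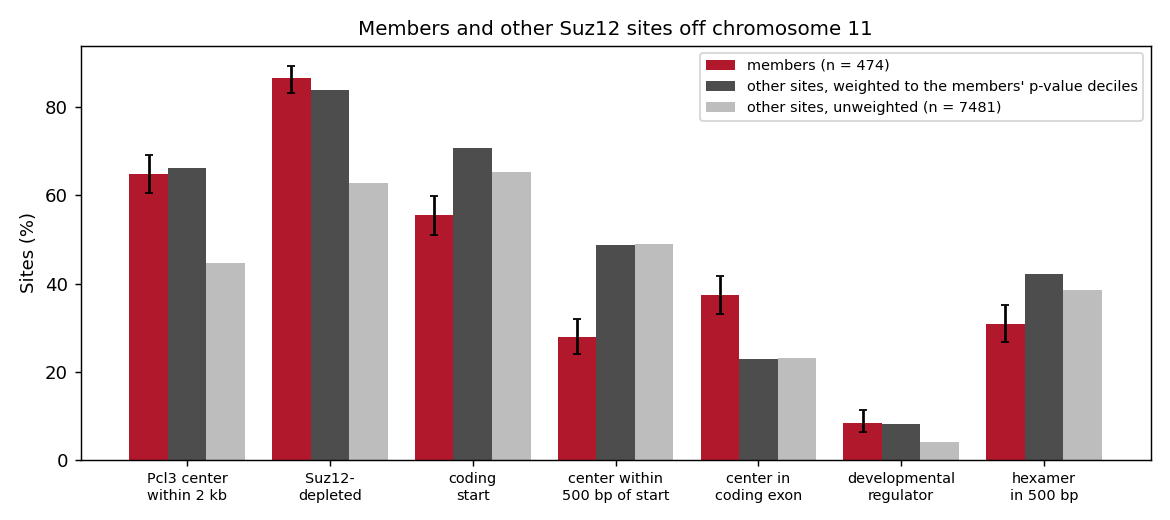
Percent of sites with each feature (y axis) for the 474 members (red, 95% Wilson intervals over sites), the other Suz12 sites weighted to the members' p-value deciles (dark gray) and the 7481 other sites unweighted (light gray). The hexamer is GCGCGC. Members and weighted sites are close for Pcl3, Suz12 depletion and developmental regulators, and differ for coding starts and coding exons.

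CpG density was lower at members than at other sites of similar p-value. The median over whole sites was 4.85 CpG per 100 bp at members (interval of the median 4.67 to 5.03), 5.50 at other sites and 5.56 after weighting. The difference of −0.72 kept its sign in 10 of 10 deciles. In the decile with the largest Suz12 p-values, medians were 2.40 at members (2.00 to 3.27) and 5.09 at other sites (4.75 to 5.50). In the decile with the smallest, they were 5.03 (4.67 to 5.35) and 5.42 (5.30 to 5.59). The gap was thus wider in the weakest decile than in the strongest. Of the 21 members in the weakest decile, 15 (71.4%, 50.0% to 86.2%) had as nearest Suz12 site a stronger one within 3000 bp. The share was 26.7% at the other sites there. The part of such neighbors in the gap was not tested.

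**Figure D4:**
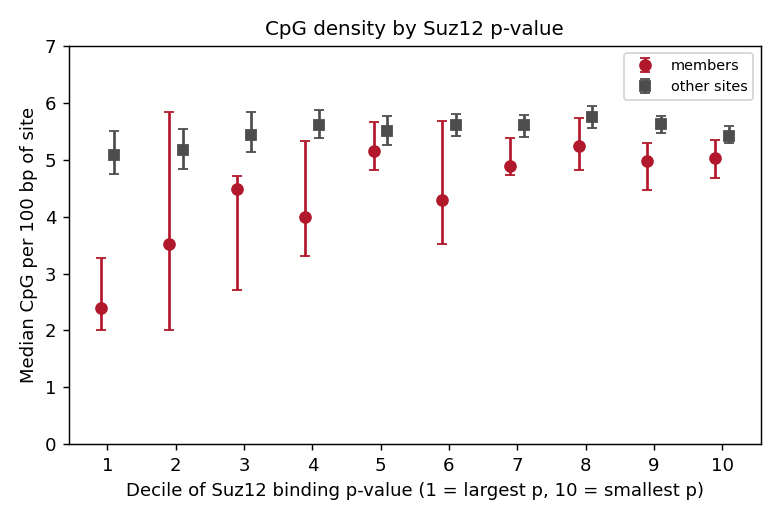
Median CpG per 100 bp of site (y axis) for members (red circles) and other sites (gray squares) by decile of the Suz12 binding p-value (x axis, 1 = largest p-values). Error bars are 95% intervals of the median over sites. Member medians are below the others in each decile, at 2.40 against 5.09 in decile 1 and 5.03 against 5.42 in decile 10. Decile 1 holds 21 members, of which 15 have a stronger Suz12 site within 3000 bp as nearest neighbor.

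The difference in CpG density was larger at the center of the site. In the 500 bp around the center, the median was 6.00 CpG per 100 bp at members (5.60 to 6.20) and a weighted 7.60 at other sites, a difference of −1.60. Among sites with a coding start the medians of this window were 6.80 (6.40 to 7.40) and 8.40, so the difference was also present when only gene starts were compared. Among sites without a coding start they were 5.00 (4.80 to 5.40) and 5.80. Over the whole site, those without a coding start had 4.32 at members (4.00 to 4.53) and 4.43 at others, and the latter lies inside the interval.

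Along the gene, the profile of CpG was lower and broader at members. In the 200 bp just upstream of the Suz12 center, members with a coding start averaged 7.47 ± 0.24 CpG per 100 bp (SE over 263 sites), against a weighted 9.03 at other sites. At 1500 bp downstream of the center the order was turned, with 2.29 ± 0.15 at members against 1.99. The same was seen 1500 bp upstream, with 2.48 ± 0.17 against 2.14.

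**Figure D5:**
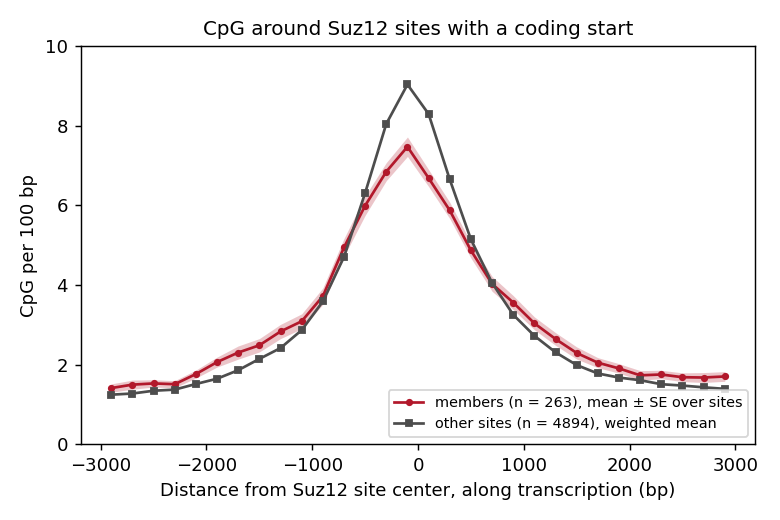
Mean CpG per 100 bp in 200 bp steps (y axis) by distance from the Suz12 center along the direction of transcription (x axis). Red shows the 263 members with a coding start with the SE over sites as a band, gray the 4894 other sites with a coding start, weighted to the members' p-value deciles. The peak is 7.47 at members and 9.03 at other sites.

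The hexamer GCGCGC, which reads the same on both strands, was searched in the 500 bp around each center. It was present at 146 members, or 30.8% (26.8% to 35.1%), at a weighted 42.2% of other sites and at 38.1% of all Suz12 sites off chromosome 11. The median GC content over whole sites was 58.5% at members and a weighted 59.6% at others.

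Width followed the Suz12 p-value. The authors recomputed that p-value over the joined windows of a site, so width and p-value are not independent. Weighting by p-value therefore also matches width in part. Members were 400 to 10500 bp wide with a median of 1900 bp (1750 to 2050), against 1050 bp at the other sites. After weighting, the median of the other sites was 1800 bp, a ratio of 1.06, and members were wider in 5 of 10 deciles. The 5 widest members were at Olig2 (10500 bp), a bHLH factor of oligodendrocytes and motor neurons, Islr2 (9250 bp), Hoxa5 (8650 bp), Prdm12 (8450 bp) and Ebf2 (8200 bp). Each had a Suz12 p-value written as 0, a Pcl3 center within 2 kb and an entry in the Suz12-depleted list. All 5 are in the decile with the smallest Suz12 p-values, where 91.2% of other sites had Pcl3 and 100% were in that list. The H3K27me3-depleted sites of these 5 members were much narrower, at 1000 to 1650 bp, with p-values from 5.92e-12 at Olig2 to 8.96e-08 at Ebf2.

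At the other end, the 3 members with the weakest Suz12 binding were 400 bp wide. Their Suz12 p-values were 9.91e-08 in the repeats at Gm10717, 8.26e-08 in a coding exon of Zfhx3, a homeobox factor, and 6.64e-08 in a coding exon of Efnb2, an ephrin ligand of axon and vessel guidance. Each had another Suz12 site within 1 kb, at 450, 925 and 650 bp. A stronger neighbor was common among weak members. In the 5 deciles with the largest p-values, 39 of 111 members (35.1%, 26.9% to 44.4%) had as their nearest Suz12 site a stronger one within 3000 bp, against a weighted 15.9% of other sites. Since 1 depleted site can link 2 neighboring Suz12 sites, the rule itself favors such pairs. An example is Lhx3, a LIM homeobox gene of pituitary and motor neurons, where 3 members with Suz12 p-values of 1.68e-92, 4.55e-09 and 1.08e-08 shared 1 depleted site.

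The share with Pcl3 at members was close to that of other Suz12 sites of similar p-value when centers within 2000 bp were linked. A Pcl3 center within 2 kb was found at 308 members, or 65.0% (60.6% to 69.1%), and at 45.9% of all Suz12 sites off chromosome 11. The share was 44.7% at other sites unweighted and 66.3% weighted. The difference after weighting was −1.36 percentage points, with −5.76 to 2.80 from the members' interval alone. Its direction depended on the settings: it was −4.31 (−8.74 to −0.19) with at least 1 shared base, −4.72 (−9.63 to −0.12) with neighboring Suz12 sites merged and 9.46 (5.96 to 12.6) with centers within 5000 bp. In the 5 deciles with the largest p-values it was 25.2% (18.1% to 34.0%) against 20.9%, and in the 5 with the smallest 77.1% (72.5% to 81.2%) against 80.2%. Members with Pcl3 had a median width of 2225 bp and a median Suz12 −log10 p of 122.9, against 1150 bp and 27.2 at the 166 without. The median H3K27me3 −log10 p was 8.40 with Pcl3 and 8.35 without. That p-value chose the members, so these medians are description only and do not compare the loss.

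Suz12 loss accompanied most members. The Suz12-depleted list, whose sites are a subset of the binding list and carry the binding p-value, held 411 members, or 86.7% (83.4% to 89.5%), and 64.3% of all Suz12 sites off chromosome 11. Other sites were in it at 62.9% unweighted and 84.0% weighted, which lies inside the members' interval. In the 5 deciles with the smallest p-values, 361 of 363 members were in the list, or 99.4% (98.0% to 99.8%), against a weighted 98.7% of other sites. In the 5 with the largest, 50 of 111 were, or 45.0% (36.1% to 54.3%), against a weighted 35.8%. The 63 members outside the list were narrow and CpG-poor, with medians of 650 bp and 3.27 CpG per 100 bp, and 31 of them had a stronger Suz12 site within 3000 bp as their nearest neighbor.

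Both features together were found at 289 members, or 61.0% (56.5% to 65.3%), against a weighted 63.1%. Suz12 depletion without Pcl3 within 2 kb was found at 122, or 25.7% (22.0% to 29.9%), against 20.8%, and Pcl3 without Suz12 depletion at 19. Neither was found at 44 members, or 9.28% (6.99% to 12.2%), against 12.8%. Chadl, Mmp9, Kremen2, Sim2 and Dusp4 belong to the members with Suz12 depletion and no Pcl3, and Apc2 and the weaker of the Cilp2 sites to those with neither.

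Genes were read by 18 lists defined by symbol, of which 7 hold developmental regulators. A site counted for a list when the start of a listed gene lay inside it or within 2000 bp of its center, so members further away, such as those in Tbx5 and Sim2, are not in these counts. A start of a developmental regulator was found at 40 members, or 8.44% (6.26% to 11.3%), against 4.00% of other sites and 8.12% after weighting. The difference after weighting was 0.32 percentage points, but 3.08 (0.26 to 6.49) when starts within 5000 bp were counted. Looked at from the list at the limit of 2000 bp, 40 of 339 Suz12 sites at starts of developmental regulators were members. This is 11.8% (8.79% to 15.7%), against 5.70% of all other Suz12 sites. Sites at these starts had a median Suz12 −log10 p of 247.1, against 25.5 elsewhere. In the decile with the smallest Suz12 p-values, 14.2% of all sites were members. Of the other sites there, 91.2% had Pcl3 and 100% were in the Suz12-depleted list. These are the values to set beside the counts of developmental regulators that follow.

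Homeobox genes outside the Hox clusters gave 20 members of 162 sites, 18 of them with Pcl3, and the median Suz12 −log10 p of the 162 was 307.2. The 3 neighboring members at Lhx3 shared a depleted site with an H3K27me3 p-value of 9.27e-14. The Hox clusters gave 5 members of 50 sites, all in the Suz12-depleted list. Hoxa10 had an H3K27me3 p-value of 3.47e-11, Hoxa3 had 5.68e-11 and Hoxa5 had 1.22e-08. Hoxa10 and Hoxa5 had a Pcl3 center within 2 kb, whereas at Hoxa3 it was 4550 bp away.

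Other families of transcription factors gave fewer sites. The bHLH regulators gave 8 members of 56 sites, all with Pcl3 and in the Suz12-depleted list. The 8 had a median Suz12 −log10 p of 292.8. They include Olig2, Twist2 and Helt, with H3K27me3 p-values of 5.92e-12, 4.25e-10 and 4.42e-09. T-box genes gave 2 of 14 (Tbx3, 1.95e-10, and Eomes, 4.81e-08), and Gata and Zic genes 2 of 12 (Gata3, 5.16e-12, and Gata4, 2.29e-10). Forkhead genes gave 2 of 31, both at Foxp4, and Sox genes 1 of 14, at Sox8. With such counts the families cannot be ranked.

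Among signaling genes, the Wnt list gave 7 members of 48 sites (14.6%, 7.25% to 27.2%). The median Suz12 −log10 p of the 48 was 100.7, and in the decile around that value 12.2% of all Suz12 sites were members. After Fzd10 these included the Frizzled receptors Fzd4 (5.92e-13) and Fzd9 (2.47e-11) and the ligand Wnt5a (7.18e-10). The BMP and TGF-beta list gave 1 of 32 (Bmp1, 4.46e-08), Fgf ligands 1 of 17 (Fgf14, 5.49e-09), hedgehog genes 1 of 14 (Ihh, 3.24e-09) and retinoic acid genes 0 of 16. Axon guidance genes gave 3 of 67, namely Ntn3, Epha8 and Sema3f, with H3K27me3 p-values from 1.33e-09 to 3.30e-08. The intervals of these lists overlap.

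Potassium channel genes gave 11 members of 64 sites, or 17.2% (9.88% to 28.2%). All 11 were in the Suz12-depleted list and 10 had Pcl3. They included Kcnj3, Kcnf1 (1.63e-11), Kcnk13 (1.25e-10) and Kcnj5 (9.45e-10), subunits of potassium channels. The interval lies above the background of 5.96%, but these sites had a median Suz12 −log10 p of 75.4, and 18 lists were read. In the decile around that value 9.05% of all Suz12 sites were members. Of the other sites there, 76.8% had Pcl3 and 99.7% were in the Suz12-depleted list. Glutamate and GABA receptor genes gave 2 of 36 (Grik3, 3.24e-13, and Grik4, 4.38e-10), cadherins and protocadherins 5 of 49, collagens 1 of 19 (Col14a1, 9.73e-08) and ribosomal protein genes 0 of 2.

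The study examined a number of loci one by one with ChIP-qRT-PCR. Of these, Hoxa3, Dusp4, Acta1, mir-196b and mir-34a, which lie off chromosome 11, were looked up among the members, and the others were not looked up. The start of Hoxa3 was 540 bp and that of Dusp4 1250 bp from the center of a member. The nearest member center was 2250 bp from the start of Acta1, a skeletal muscle actin, with an H3K27me3 p-value of 4.49e-11. It was 10062 bp from mir-196b and 19862 bp from mir-34a. Each of these nearest members was in the Suz12-depleted list. They are in deciles 7, 9 and 10 of Suz12 p-value, where 97.2%, 99.9% and 100% of other sites were in it.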

How the data were processed

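The authors aligned the reads of each ChIP-seq library to mm9 with Bowtie, kept unique alignments and brought the background of paired libraries to the same level. Windows were tested by a Skellam model, and those past the cutoff were concatenated. Each of the 4 deposited lists gives a p-value per site. The lists are of Suz12 binding (8876), Suz12 depletion (5722), H3K27me3 depletion (678) and Pcl3 binding (5242). The p-value in the Suz12-depleted list is that of binding, so none is given for Suz12 depletion. The 2 Pcl3-TAP libraries share 1 list. Scaling to equal background assumes that it is alike on every chromosome. A deposited p-value written as 0 was placed at the largest −log10 p-value of its list. Read depth was not analysed here, so the precision of single sites is unknown.

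Centers within 2000 bp linked sites. Suz12 sites off chromosome 11 were divided into 10 bins of p-value, and values of non-members were weighted to the members' share per bin. Shares have 95% Wilson intervals and medians 95% order-statistic intervals. An interval of a difference moves the members' value alone. Genes came from GENCODE vM1 on the same build, and coordinates are 1-based. Members, gene lists and comparisons were chosen with earlier results of these data known. Named sites follow a rule: the 20 smallest H3K27me3 p-values (1 site per gene, the nearest center where tied), the 5 widest, loci tested by the study, up to 4 per list, 3 sites on each side of the limit, the 3 weakest, and those over 10% repeated. Some sites that the rule names are not reported here. A site is named by the coding start assigned to it, otherwise by the gene holding its center, otherwise by the nearest start. The overlap, weighting and repeat functions were tested on simulated data. The tools were pysam 0.24.0 and samtools 1.23.1 for sequence, pandas 2.3.3, scipy 1.17.1 and numpy 2.4.6 for values, and matplotlib 3.10.9 for plots, under Python 3.11.15.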

Additional observations from a re-analysis of the deposited data

How the results depend on the processing

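The 13 summary values were recomputed 134 times in all under 13 alternatives, and 99 stayed within the interval of the main value. Of the 35 that did not, 3 had the opposite sign, in differences whose main interval holds 0: Pcl3 at 5000 bp, and Suz12 depletion and developmental regulators at 1e-12. The coding start difference ranged from −17.2 to −7.52 percentage points and the CpG difference from −1.60 to −0.56 per 100 bp. The causes of the moves below were not tested.

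The percentage of members was 3.38, 4.84 and 7.98 with centers within 500, 1000 and 5000 bp. Pcl3 was then near 55.0%, 60.3% and 75.4% of members, and 91.5%, 90.4% and 79.8% were Suz12-depleted. At 5000 bp, where Pcl3 was linked at that distance too, the differences from weighted sites were 9.46 points for Pcl3 and 4.49 for developmental regulators, and CpG density was 4.57, a difference of −1.01. With at least 1 shared bp, 91.1% were Suz12-depleted and the median width was 2100 bp. With p-values of at most 1e-10 in every list, 1.91% were members (127 sites), 92.9% of them Suz12-depleted, with a median width of 2250 bp and a Pcl3 difference of −6.59. At 1e-12 it was 1.09% (66 sites), with 57.6% near Pcl3, 93.9% Suz12-depleted, a median width of 2425 bp, a width ratio of 1.15, and differences of −9.57 for Pcl3, −0.83 for Suz12 depletion and −5.14 for developmental regulators. The Suz12-depleted list carries binding p-values, so these limits kept stronger Suz12 sites and did not tighten the call of Suz12 depletion. Merging neighboring sites left 381 members, with 91.9% Suz12-depleted, a width of 2150 bp, 5.04 CpG per 100 bp and 62.2% with a coding start. Density over 500 bp was 6.00, a difference of −1.60. Starts within 5000 bp were found at 70.7%, a difference of −7.52. Leaving out X and Y or repeated sites, 20 bins, and bins of width kept each value within its interval. No paired analysis was possible because each condition has 1 library.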

Other observations

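Of the 480 H3K27me3-depleted sites off chromosome 11, 46 had no Suz12 center within 2000 bp, and 15 of these shared a base with a Suz12 site. Their median −log10 p was 7.85 and their median CpG density 3.20 per 100 bp, against 4.44 at the 434 sites with a Suz12 center. A coding start was found at 12 of the 46, and 24 lay within 10 kb of a Suz12 center. The site with the smallest p-value among them (2.63e-20) lay at Gm10720 on chromosome 9 (3014451 to 3016600), beside the repeats described above. The next lay at Wnt7b, a Wnt ligand, on chromosome 15 (85406801 to 85408850), with a p-value of 1.85e-15 and a Suz12 center 2225 bp away.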
